A study of Canis lupus familiaris with 51 samples.

Results

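The 60 genes described here are those whose transcript levels followed most closely the level of the gene ENSCAFG00000016539, called the lead gene below, across dog hemangiosarcomas of the heart. They were chosen by measured values from the 16382 genes of a table of FPKM values (fragments per transcript length and per mapped library total). A gene had to reach 5 FPKM in at least 1 of 11 heart tumours, to have a median under 1 FPKM over 32 spleen tumours, and to be among the 60 with the highest Pearson correlation (r) of log2(FPKM + 1) with the lead gene over the 11 heart tumours. 10809 genes reached 5 FPKM in a heart tumour, 311 of them lay inside both level limits, and 251 of those 311 were left out by the correlation. Members are given by their rank in that correlation, with the lead gene at rank 1. The files do not pair the Ensembl identifiers with gene symbols. The symbol table used (assembly UU_Cfam_GSD_1.0) held 0 of the 16382 identifiers. What each gene encodes is therefore not stated, and no list of cell type markers could be scored to check the tissue labels.

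Hemangiosarcoma is a malignant tumour of cells related to the lining of blood vessels, and in dogs the spleen and the heart are common sites. A bulk tumour sample holds tumour cells together with blood, stroma and remnants of the host organ. Genes whose levels rise and fall together across such samples can be read out in one kind of cell or switched together within a cell. In a bulk library fewer cells of a type and less RNA per cell cannot be told apart.

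RNA from 51 tumours was sequenced, and the tissue labels were spleen for 32, heart for 11 and liver for 3. The labels metastatic tumor, abdominal mass with metastatic status, abdominal mass, cutaneous and undetermined histogenic origin each had 1 tumour. Labels also gave breed, sex with neuter status, and age at diagnosis, which was 3.0 to 13.6 years in spleen (median 10.15), 5.9 to 11.2 in heart (median 9.1) and 9.6 to 10.9 in liver. No treatment or normal tissue was among the samples. Of the spleen tumours 16 came from females and 16 from males, 20 from neutered dogs and 20 from Golden Retrievers. The other spleen tumours came from German Shepherd Dogs (3), Keeshonds (2) and Portuguese Water Dogs (2). There was also 1 each from a Boxer, Briard, Bullmastiff, Gordon Setter and Labrador Retriever. Of the heart tumours 3 came from females and 8 from males, 6 from neutered dogs and 6 from Golden Retrievers. The 5 other heart tumours came from a Bernese Mountain Dog, a Border Collie mix, a Labrador Retriever, a Portuguese Water Dog and a Saluki. The 3 liver tumours came from 2 neutered females and 1 intact female, which were a Golden Retriever, a Portuguese Water Dog and a Wolf mix. A neutered female Golden Retriever of 11.3 years had the metastatic tumour. The metastatic abdominal mass was from a neutered female Lab/Husky mix of 9.0 years, and the other from an intact male Boxer of 8.7. The cutaneous tumour came from a neutered female Bichon Frise of 10.7 years. An intact female Golden Retriever of 0.7 years had the tumour of undetermined origin. Tumours that differ in breed or sex are from different dogs, but nothing in the labels says that each tumour is from a different dog. The p-values below therefore measure only the spread between these samples, part of which may be technical. Between 10604 and 11508 genes reached 1 FPKM in each heart library, and relative depth solved from the steps of low FPKM values ran from 0.812 to 1.421 in hearts and from 0.503 to 2.038 over all libraries, in units of the geometric mean library.

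Heart tumours fell far apart in the lead gene. Its level was 221.6 FPKM in heart 1, 493.0 in heart 7, 368.4 in heart 8 and 981.8 in heart 10. In the other 7 heart tumours it lay between 0.184 and 1.013 FPKM. No heart tumour had a value between 1.013 and 221.6 FPKM, and the mean over all 11 was 188 ± 317 FPKM (SD, n = 11) with a median of 0.543. In spleen the lowest value of the lead gene was 0 FPKM, the median 0.089 and the highest 0.854. 10 of the 32 spleen tumours were listed at 0. The 3 liver tumours were at 0, 0 and 0.055 FPKM. Outside heart the highest value was 2.34 FPKM, in the metastatic tumour, which was the only one of these 40 tumours above 1 FPKM.

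**Figure D1:**
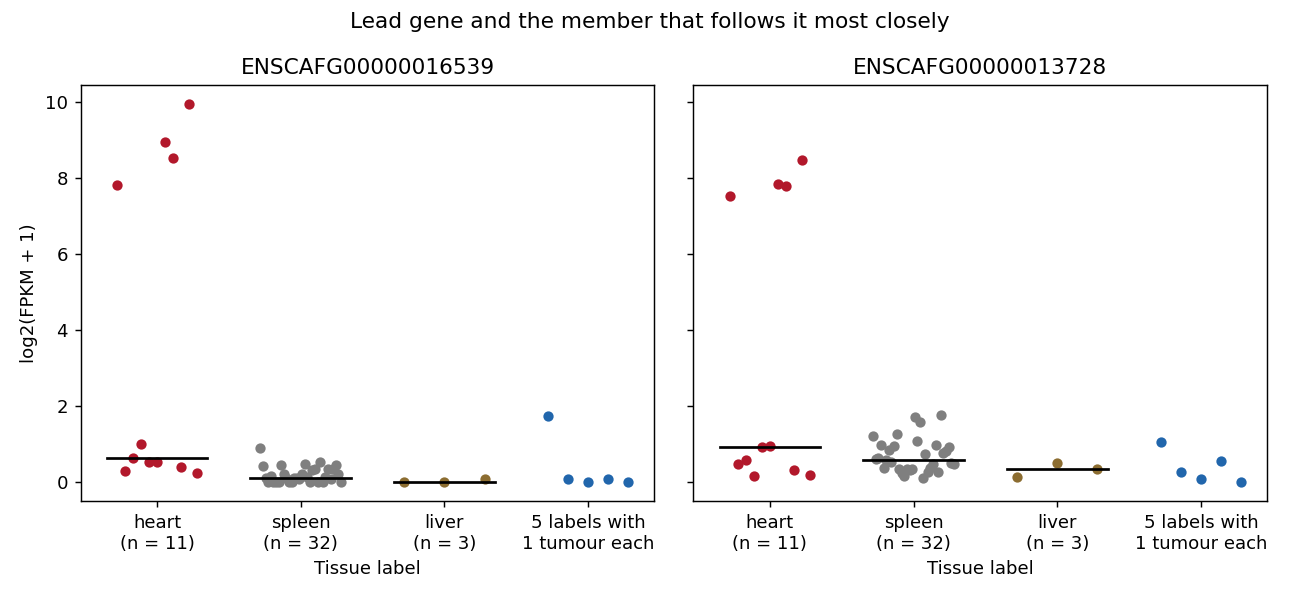
Level of the lead gene (left) and of the member that follows it most closely (right) in each tumour, as log2(FPKM + 1) on the y axis, by tissue label on the x axis. Each point is 1 tumour and the black lines are medians. In both panels 4 heart tumours sit above 7 on the log2 scale and every other tumour sits below 2.

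The low values of the lead gene rest on few fragments. After scaling by relative depth, all 33 tumours with a non-zero value other than hearts 1, 7, 8 and 10 lay within 0.05 of a whole multiple of the smallest such value. Counted in these smallest steps, spleen tumours held at most 8, with 8 tumours at 1 step and 14 at 2 or more. The low hearts held 2 to 19 steps and the metastatic tumour 22. Heart 1 held 3174 steps, heart 8 held 4776, heart 7 held 8483 and heart 10 held 10527. If the smallest step is 1 fragment, differences among the spleen tumours in this gene are differences of a few fragments. The smallest step was not checked against a fragment count, since counts were not used here.

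ENSCAFG00000013728, at rank 2, had the closest pattern to the lead gene over the 11 heart tumours (r = 0.995). It stood at 182.2 FPKM in heart 1, 227.6 in heart 7, 217.7 in heart 8 and 352.9 in heart 10. The other hearts held between 0.123 and 0.939 FPKM. The same 4 hearts were thus high for both genes, but this member spanned a narrower range among them than the lead gene did. Its spleen values ran from 0.072 to 2.42 FPKM with a median of 0.512, and 6 of the 32 spleen tumours reached 1 FPKM. Its liver level was 0.260 ± 0.158 FPKM (SD, n = 3).

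Members at ranks 3 to 20 repeated this split, at levels below rank 2 except for rank 7 in hearts 8 and 10. The member at rank 3 stood at 89.0, 91.7, 79.4 and 99.3 FPKM in hearts 1, 7, 8 and 10, and at no more than 0.881 in any other heart. Next, at rank 4, levels were 47.0, 47.2, 27.7 and 51.02 FPKM in the same order, and no more than 0.920 elsewhere in heart. Rank 3 was nearly even across the 4 high hearts, and rank 4 was lower in heart 8 than in the other 3. At rank 7 the levels were 50.2 FPKM in heart 1, 132.3 in heart 7, 248.2 in heart 8 and 362.8 in heart 10. At rank 8 they were 13.98, 119.1, 40.5 and 143.7 FPKM in hearts 1, 7, 8 and 10. Both resembled the lead gene in being lowest in heart 1 and highest in heart 10 among these hearts.

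The sharpest on and off pattern was at rank 5. This member stood at 17.96, 14.3, 13.1 and 10.9 FPKM in hearts 1, 7, 8 and 10, and was listed at 0 in the 7 other hearts, in all 3 livers and in 30 of 32 spleens. It was also highest in heart 1 and lowest in heart 10, the reverse of the lead gene. At rank 14 levels within the 4 hearts ran from 5.97 FPKM in heart 1 to 100.8 in heart 10, with 44.1 in heart 7 and 35.4 in heart 8. Among ranks 1 to 20 it was the 1 member that also passed 10 FPKM outside heart.

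**Figure D2:**
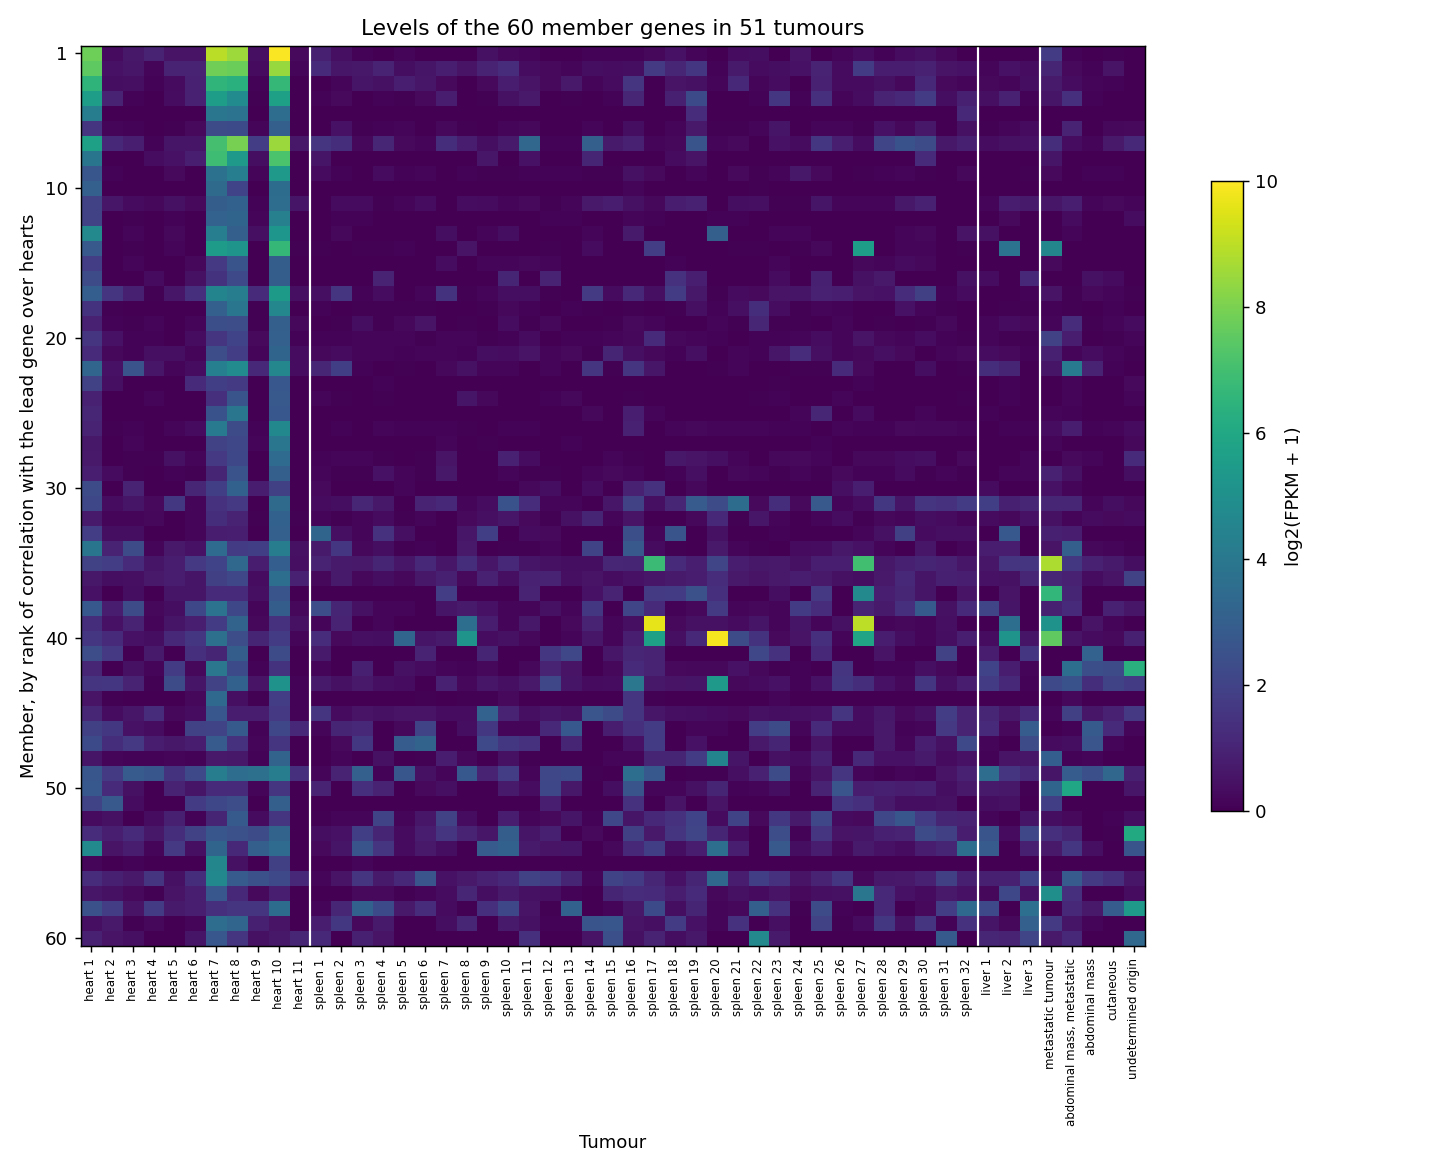
Level of each of the 60 members (rows, by rank of correlation with the lead gene over hearts) in each of the 51 tumours (columns), as log2(FPKM + 1) by colour. White lines divide heart, spleen, liver and the 5 tumours with labels of their own. Hearts 1, 7, 8 and 10 are bright over the upper rows, while the lower rows hold scattered bright cells in single tumours of other tissues.

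The common pattern weakened down the ranks. Ranks 1 to 20 had r between 0.943 and 1, ranks 21 to 40 between 0.748 and 0.936, and ranks 41 to 60 between 0.635 and 0.743. The last 3 members taken had r of 0.656, 0.637 and 0.635, and the first 3 genes left out had 0.631, 0.621 and 0.600, so the list ends on a slope and not at a gap. 25 members had r over 0.9 and 36 had r over 0.8.

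Hearts 1, 7, 8 and 10 held the 4 highest heart values for 38 of the 60 members, which is 12.2% of the 311 genes inside both level limits, since 0 of the 251 genes left out had this order. The correlation that chose the members largely fixes this count, and nothing is read from it. The 38 comprised all 20 of ranks 1 to 20, 14 of ranks 21 to 40 and 4 of ranks 41 to 60. Only 13 members reached 5 FPKM in each of the 4 hearts, and 42 reached 1 FPKM in each. The 7 other hearts were all under 1 FPKM for 34 members, and both conditions (1 FPKM in each of the 4 and under 1 in each of the 7) held for 18. At the other end, 30 members reached 5 FPKM in only 1 heart tumour. One such member, at rank 55, had 23.4 FPKM in heart 7, 2.75 in heart 10, and 0.360 or less in every other heart. Another, at rank 48, had 8.02 FPKM in heart 10 and no more than 0.596 in any other heart. At rank 49 the split was lost: 17.4 FPKM in hearts 7 and 10 stood beside 12.0 in heart 9, 6.24 in heart 3 and 5.40 in heart 1.

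The 4 hearts differed in how much of the list they held. Heart 10 had 44 members at 5 FPKM or more, heart 7 had 32, heart 8 had 28 and heart 1 had 18. Hearts 2, 3 and 4 had 1 each, heart 9 had 2, and hearts 5, 6 and 11 had 0. No member was listed at 0 in hearts 1, 7, 8 or 10, while between 9 and 35 members were at 0 in each of the other hearts. Heart 10 held the highest heart value for 38 members, heart 7 for 11, heart 8 for 8 and heart 1 for 3. The members made up 0.559% of the summed FPKM of heart 10, 0.3004% of heart 7, 0.273% of heart 8 and 0.157% of heart 1, and between 0.0019% and 0.0084% in each other heart.

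**Figure D3:**
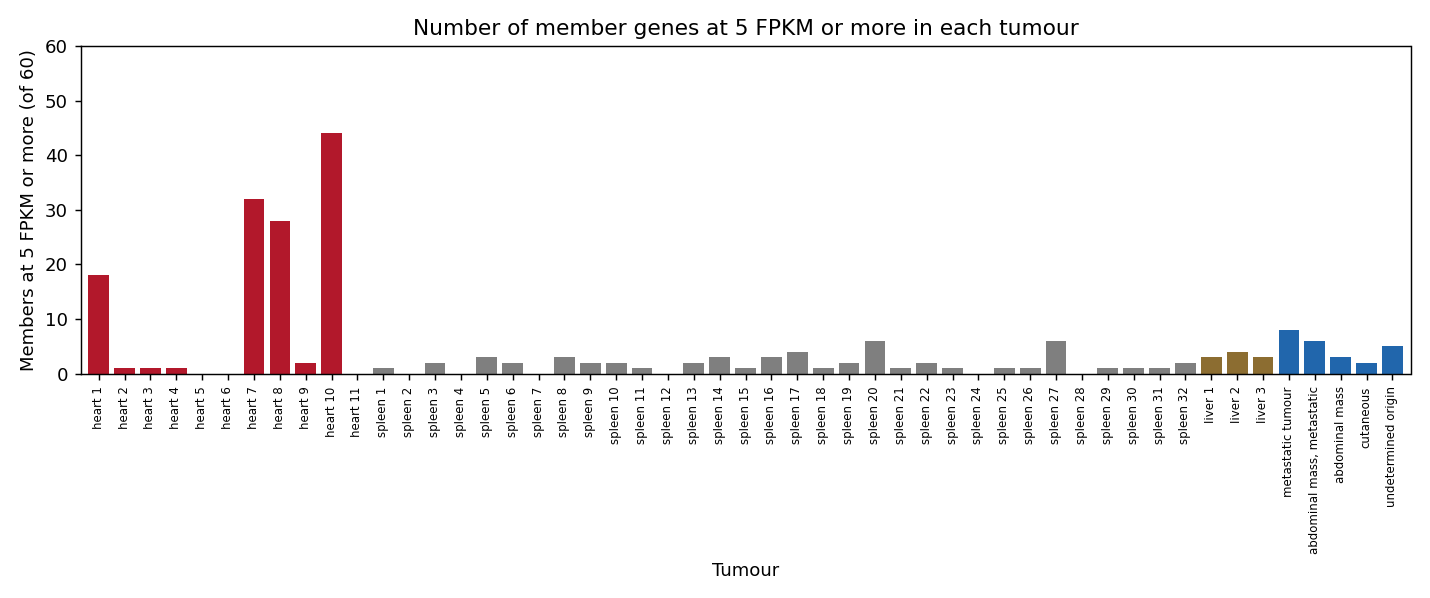
Number of the 60 members at 5 FPKM or more (y axis) in each of the 51 tumours (x axis), with heart in red, spleen in grey, liver in brown and the single-tumour labels in blue. Heart 10 reaches 44 and hearts 7, 8 and 1 reach 32, 28 and 18, and no other tumour passes 8.

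No single label field divided the 4 hearts from the other 7, and no link of the split with a label was tested. All 4 came from males, but so did hearts 4, 5, 9 and 11. The 3 hearts from females were all among the other 7. Neutered dogs gave 3 of the 4 hearts and 3 of the other 7. Hearts 7, 8 and 10 came from Golden Retrievers, but so did hearts 4, 5 and 6, and heart 1 came from a Border Collie mix. Ages were 6.0, 10.9, 10.9 and 8.6 years in hearts 1, 7, 8 and 10, within the 5.9 to 11.2 years of the other hearts. Heart 1 was the only heart tumour whose title begins with CHAD and not DHSA, prefixes that the labels do not explain. Relative depth was 1.085, 1.303, 0.982 and 0.812 in hearts 1, 7, 8 and 10, inside or close to the range of 0.824 to 1.421 in the other hearts. These 4 libraries held 11308 to 11508 genes at 1 FPKM or more, against 10604 to 11491 in the others. The part of depth, handling and cell content in the split was not tested.

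Part of the list depends on single hearts. Reapplying the rule without each heart in turn kept between 44 and 59 of the 60 members, the fewest without heart 10. 26 members were kept whichever heart was left out, of which 16 were in ranks 1 to 20, 7 in ranks 21 to 40 and 3 in ranks 41 to 60. Ranking by Spearman correlation kept 51 members and requiring 10 FPKM in a heart kept 33. The order within the list was less stable: 8 of ranks 1 to 20 were again among the first 20 by Spearman correlation, and 15 with 10 FPKM required. The contrasts between rank groups given here hold for the Pearson order.

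Outside heart the list did not move as a block. All 40 other tumours were under 1 FPKM for 12 members and under 5 FPKM for 31. The other 29 members (48.3%) reached 5 FPKM in at least 1 tumour outside heart, and among the 251 genes left out 205 (81.7%) did. For 18 members (30%) a tumour outside heart stood above every heart, against 58.6% of the genes left out. The ranks differed in this. 3 of ranks 1 to 20 reached 5 FPKM outside heart, 9 of ranks 21 to 40 and 17 of ranks 41 to 60. The median of the members' spleen medians also rose down these groups, from 0.06 to 0.099 and 0.35 FPKM. Lower ranks thus started from a higher spleen level, and nothing is read from this trend. None of ranks 1 to 20 had its highest value outside heart, against 6 and 12 in the lower ranks. The ranking used the heart values, so this comparison of heart with other tissues is tied in part to the rule. The median of the highest heart value was 30.2 FPKM in ranks 1 to 20, 9.52 in ranks 21 to 40 and 8.08 in ranks 41 to 60, while that of the highest value outside heart was 1.57, 2.26 and 10.3 FPKM. In ranks 41 to 60 tumours of other tissues thus reached levels like those in heart.

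**Figure D4:**
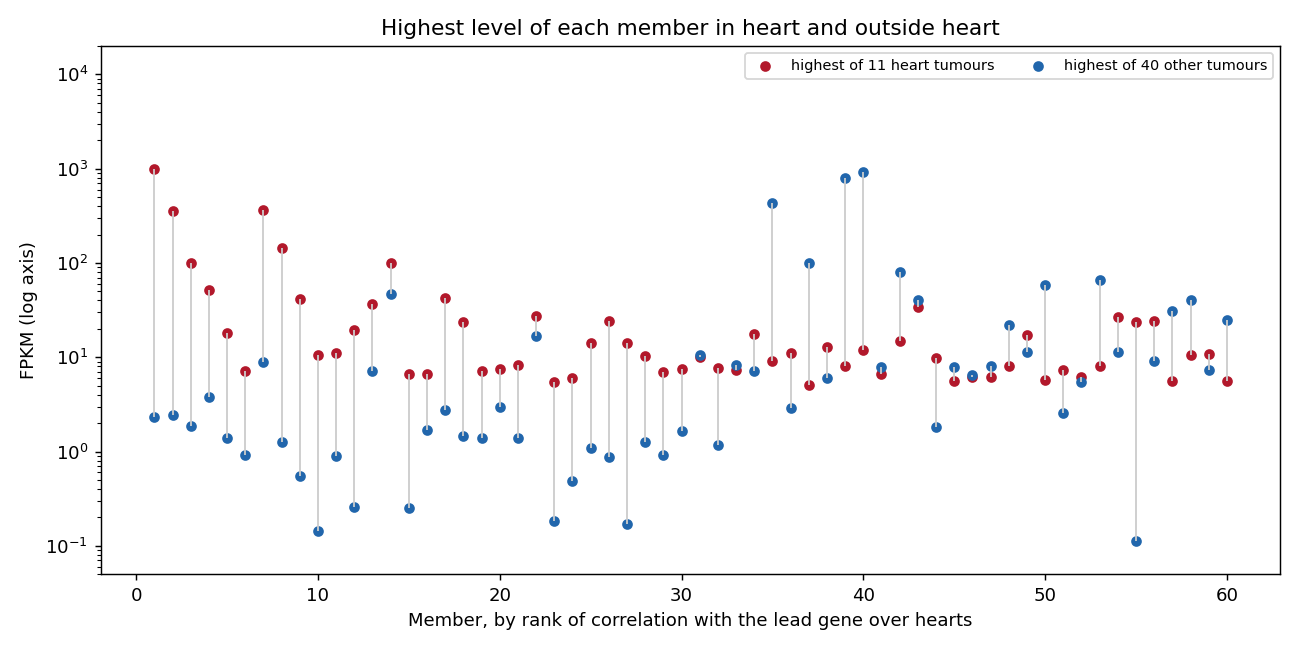
Highest FPKM of each member among the 11 heart tumours (red) and among the 40 other tumours (blue), on a log y axis, against the member's rank on the x axis. Grey lines join the 2 values of a member. Red lies above blue for all 20 of the first ranks, and blue rises above red for 18 members, with the widest reversals at ranks 35, 37, 39 and 40.

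High values outside heart were scattered. 89 values of 5 FPKM or more were spread over 34 of the 40 tumours, and 6 tumours had none. Of the 29 members with such a value, 5 had it in 1 tumour and 24 in 2 or more, up to 8 tumours for the member at rank 49. Spleen tumours held between 0 and 6 members at 5 FPKM or more, with a median of 1. Liver tumours 1, 2 and 3 held 3, 4 and 3. The metastatic tumour held 8, the metastatic abdominal mass 6, the tumour of undetermined origin 5, the other abdominal mass 3 and the cutaneous tumour 2. The genes left out were at 5 FPKM or more about as often or more often in most of these tumours: 21.1% of them against 13.3% of members in the metastatic tumour, 13.9% against 8.33% in the tumour of undetermined origin and 6.77% against 3.33% in the cutaneous tumour. The share was 8.37% against 10% of members in the metastatic abdominal mass.

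The metastatic tumour and spleen 27 were high for overlapping members. All 6 members at 5 FPKM or more in spleen 27, at ranks 14, 35, 37, 39, 40 and 57, were among the 8 of the metastatic tumour (75% of those 8). The genes left out overlapped in the same way: 36 were at 5 FPKM or more in both tumours, which is 67.9% of 53 in the metastatic tumour and 80% of 45 in spleen 27. The overlap is thus not particular to the members. At rank 35 the metastatic tumour stood at 435.5 FPKM, spleen 27 at 125.9 and spleen 17 at 112.8, while no heart passed 9.04. At rank 37 the metastatic tumour stood at 98.7 FPKM and spleen 27 at 25.4, while no heart passed 5.09. At rank 14 spleen 27 stood at 47.1 FPKM, the metastatic tumour at 23.1 and liver 2 at 13.2. These 3 values lay inside the range of the 4 high hearts for that member, and the median over all spleen tumours was 0.031 FPKM. The lead gene was under 1 FPKM in spleen 27 and liver 2, and at 2.34 FPKM, its highest level outside heart, in the metastatic tumour.

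At rank 39 spleen 17 stood at 787.8 FPKM and spleen 27 at 507.9, the metastatic tumour at 34.4 and liver 2 at 11.1, against a highest heart value of 8.04. At rank 40 spleen 20 stood at 931.6 FPKM, the metastatic tumour at 189.4 and liver 2 at 35.2, against a highest heart value of 11.9. These 2 members thus had their highest values by far in spleen, although their spleen medians were 0.197 and 0.464 FPKM. Spleen 20 was also high at rank 43, with 40.8 FPKM, and at rank 48, with 22.03 FPKM.

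The tumour of undetermined origin was high at other ranks. It held 80.3 FPKM at rank 42, 65.8 at rank 53 and 40.6 at rank 58, each above every heart. Whether the genes left out also differed between this tumour and those above was not compared. The metastatic abdominal mass held 58.4 FPKM at rank 50 and 16.7 at rank 22. At rank 22 that value lay among the 4 high hearts, which stood at 8.52, 19.1, 27.5 and 23.9 FPKM. With 1 tumour for each of these labels, nothing is said of the label from them.

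Over the 3 liver tumours, which the rule did not use, the median over members of the mean log2(FPKM + 1) level was 0.366, with the same quantity at 0.359 in spleen and 1.12 in heart. The spleen and heart values are set in part by the rule. Liver 1 held 10.9 FPKM at rank 49 and 6.33 at rank 54, and liver 3 held 11.6 FPKM at rank 58 and 7.29 at rank 59. The members at 5 FPKM or more differed between the 3 livers. In livers 1, 2 and 3 they were 5%, 6.67% and 5% of members. The genes left out stood at 5.18%, 11.95% and 7.97%. Whether the genes left out also differed between livers was not compared, so nothing is read from the difference.

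Over the 32 spleen tumours members varied together about as little as the genes left out. The mean Pearson r over 1653 pairs of the 58 members above 0 in at least 3 spleen tumours was 0.0491 (SD 0.235 over pairs), and 5.02% of pairs passed 0.5. Among the genes left out the mean was 0.0307 and 6.01% of pairs passed 0.5. Over the 11 hearts the same means were 0.727 for members, which the rule fixed, and 0.058 for genes left out. Pairs share their libraries and their depth, and at these levels many values rest on few fragments. Within the 7 hearts other than 1, 7, 8 and 10, the correlation of a member with the lead gene had a median of -0.068 over the 57 members with a value, from -0.735 to 0.894. It was below 0 for 32 members and over 0.5 for 4.

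**Figure D5:**
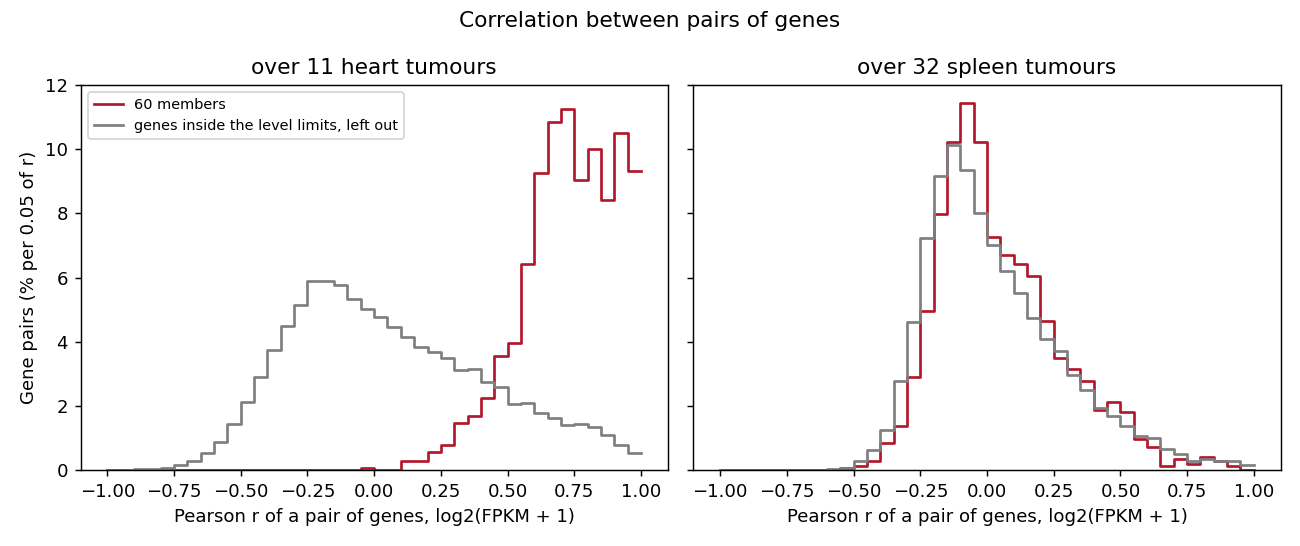
Share of gene pairs (y axis, percent per 0.05 of r) by their Pearson r of log2(FPKM + 1) (x axis). Panels show 11 heart tumours (left) and 32 spleen tumours (right), with members in red and genes left out in grey. Only genes above 0 in at least 3 of the panel's tumours were paired. These were 60 members and 244 genes left out in heart, and 58 and 250 in spleen. The curves are far apart in heart, where r chose the members, and nearly cover each other in spleen, where the means are 0.0491 and 0.0307.

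A few pairs of members did vary together in spleen. Of the 15 pairs with the highest r, 11 dropped under 0.2 without the 2 tumours farthest from the median of the pair's first-named member. Ranks 35 and 39 dropped from 0.947 to 0.190. Those 2 tumours can differ between pairs, and tumours far from the median only in the second member were kept. The other 4 of the 15 pairs stayed over 0.7. Ranks 22 and 34 had r = 0.859 (0.798 without those 2 tumours, Spearman's rho 0.68). Ranks 41 and 46 had r = 0.847 (0.803, rho 0.80). Ranks 4 and 6 had r = 0.823 (0.706, rho 0.72), and ranks 14 and 39 had r = 0.847 (0.738, rho 0.19). The low rho of the last pair shows that it rested on tumours with large values. These pairs were picked as the highest of 1653, so their r is a description.

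The labels of the spleen tumours were tested next, since the rule used only the spleen median. 32 members passed the filter of 1 FPKM in at least 3 of the 32 spleen tumours, and the lead gene did not, as none of its spleen values reached 1 FPKM. It had a median of 0.065 FPKM in 16 tumours from females and 0.160 in 16 from males. The ranges of 0 to 0.359 and 0 to 0.854 overlap. Between males and females limma called 0 of the 32 members at an adjusted p under 0.05 beside 0.0% of all 12645 genes. 6 of the 32 members passed an unadjusted p under 0.05, 5 of them lower in males, beside 8.14% of all genes in either direction. Of those 1029 genes 363 were higher in males. Rank 31 ran from 0.1 to 10.6 FPKM in females with a median of 1.69, and from 0 to 4.81 in males with a median of 0.268. It was lower in males by -0.90 ± 0.29 (log2 scale, SE) with a limma adjusted p of 0.592. At rank 4 the median was 0.757 FPKM in females (0 to 3.77) and 0.060 in males (0 to 0.834), a difference of -0.59 ± 0.19 (log2 scale, SE) with a limma adjusted p of 0.592. The ranges overlapped for both members.

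Between 20 neutered and 12 intact spleen tumours, fitted with sex, limma called 0 of the 32 members, beside 0.0% of all 12645 genes. 4 of the 32 members had an unadjusted p under 0.05, all higher in neutered dogs, beside 4.89% of all genes in either direction. Of those 618 genes 266 were higher in neutered dogs. The member at rank 54 had a median of 0.773 FPKM in neutered dogs (0 to 11.3) and 0.263 in intact dogs (0 to 1.83), and a difference of 0.94 ± 0.35 (log2 scale, SE) with a limma adjusted p of 0.928. Rank 31 had a median of 1.46 FPKM in neutered dogs (0.090 to 10.6) and 0.261 in intact dogs (0 to 1.90), a difference of 0.76 ± 0.28. Values of both members overlapped between the groups.

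Breed, age and title showed no more. Limma called 0 members in each of these contrasts, beside 0.0% of all genes. At an unadjusted p under 0.05 there were 0 members between Golden Retrievers and other breeds beside 2.06% of genes, 2 members with age beside 11.0%, and 0 members between CHAD and DHSA titles beside 4.05%. One of the 2 with age was ENSCAFG00000013728, with a slope of 0.079 ± 0.036 per year (log2 scale, SE, limma adjusted p 0.421), and the other was at rank 56, with -0.124 ± 0.057 (limma adjusted p 0.422). The other settings also called 0 members and 0 of all genes in the sex, neuter status, breed, age and title contrasts.

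Heart against spleen is the contrast that chose the members, so its folds and counts are a description and test nothing. 59 members passed the filter over the 46 heart, spleen and liver tumours, against 32 over spleen alone, so many, the lead gene included, passed only with tumours from outside spleen. The lead gene differed by 3.33 ± 0.69 (log2 scale, SE) and ENSCAFG00000013728 by 2.49 ± 0.62. The median difference over the 59 members was 0.71, beside 0.00 over all genes. The fit's threshold was passed by 8 members, beside 0.155% of all 12887 genes, and an unadjusted p under 0.05 by 41 members, beside 5.87%. Nothing is read from these shares. Without heart 1, 7, 8 or 10 the count of 8 was 0 (with 4 to 6 of all genes past the threshold), and without any other single heart it was 13 to 18 (with 23 to 48 of all genes), so the counts of members and of all genes moved together.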

How the data were processed

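The authors deposited 1 table of FPKM values with 16382 genes and 1 column for each of 51 tumours. The tools named, per the submitters' processing notes, are TopHat 1.4.1, Cuffdiff and FastQC 0.11.2, and the genome build is CanFam3.1. For annotation, strand setting, filters and scaling between libraries, the sources used here give nothing, and counts were not used here, so no counting interval was computed. Per the labels' protocols, libraries were made from total RNA with a TruSeq kit.

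The members and lists were chosen with earlier results of these data known. The identifiers printed are the lead gene and the member of highest correlation with it, by a rule for tables without symbols, and other members are given by rank. Correlations and tests used log2(FPKM + 1), which understates the change of low genes. Limma 3.58.1 in R 4.3.3 was fitted over all genes that reached 1 FPKM in 3 or more of the tumours fitted (empirical Bayes with a mean trend, two-sided, Benjamini-Hochberg adjusted p under 0.05) and tested on simulated data. Sex, neuter status (with sex), breed class, age and title prefix were fitted over 32 spleen tumours, and heart against spleen over 46 tumours. Relative depth was solved from 2406 low genes, with 100% of library pairs within 0.05 (log2). It equals sequencing depth only if no other scaling was applied. No pair of libraries correlated above 0.977, and none was counted as a duplicate. Rank groups of 20, relative depth, smallest steps, pairs without 2 tumours, shared high members and the shares of genes left out were chosen after seeing the data.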

Additional observations from a re-analysis of the deposited data

How the results depend on the processing

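The number of members past the threshold for higher levels in heart than in spleen, which the rule favours, was 8 of 20 genes. It fell to 0 with a filter on a mean of at least 1 FPKM, to 1 with all covariates and to 0 without CHAD titles, and ranged from 0 to 18 when 1 heart was left out. Pseudocount 0.1, no filter, rescaling and robust fitting moved it by less than 1.5 times. The heart minus spleen difference ranged from 2.69 to 4.83 (log2) for the lead gene and from 1.97 to 2.82 for ENSCAFG00000013728 over 18 other settings. With 10 FPKM required in a heart 33 members were kept, and the rule's 16 other settings kept 44 to 60. The liver median log2 level of 0.366 was -1.49 with pseudocount 0.1, since most members are near 0, and ranged from 0.254 to 0.360 when 1 liver was left out. The 4 other settings for the mean pairwise r over spleen gave values from 0.0495 to 0.057. In the spleen contrasts 0 members and 0 of all genes were called under every setting run. No paired analysis was possible because replicate numbers were given in sample order and so link no tumours. The absence of fragment counts limits what can be said of values under 1 FPKM.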

Other observations

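The numbers of the identifiers were compared after the data were seen. 4 of the 1770 pairs of members (0.226%) have identifier numbers that differ by 5 or less, against 20 of 31375 pairs (0.064%) of the genes left out. The 4 are ranks 1 and 8, ranks 17 and 52, ranks 22 and 34, and ranks 41 and 46, with r over the 32 spleen tumours of 0.372, 0.297, 0.859 and 0.847. In spleen 4 pairs stayed over 0.7 without the 2 tumours farthest from the first member's median. Of these, ranks 22 and 34 and ranks 41 and 46 are pairs with near identifiers. The r of the 20 near pairs of genes left out was not computed, so no link between r and identifiers is read. Gene positions were not used here.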
